A study of Mus musculus with 14 samples.

Results

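RNA levels of the brain were compared with those of a thigh muscle, the vastus lateralis, in wild-type mice. The comparison rests on 8 of the 14 arrays of the series, 4 labelled as whole brain and 4 as vastus lateralis, chosen because their labels call the mice wild type. The other arrays, of mice that lack the imprinting center of the Prader-Willi domain, were not used. All 8 samples came from mice of a cross between FVB and B6 (F1 hybrid) that were littermates of the mutants and matched to them for age. The labels give no age, sex or treatment. They call the samples biological replicas and do not say whether a brain and a muscle sample with the same number came from 1 mouse, so p-values measure the spread between these samples. Each sample has an expression array of its own, made by Affymetrix, which reads each transcript with 1 or more probe sets. The number of arrays limits the precision.

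Brain and skeletal muscle are both electrically excitable and burn much energy, and they do so with different cells. Neurons signal by releasing transmitter from synaptic vesicles onto receptor channels of the next cell, and glia insulate and feed them. A muscle fibre holds many nuclei and is packed with sarcomeres, in which myosin thick filaments slide along actin thin filaments anchored at Z discs when calcium leaves the sarcoplasmic reticulum. Many enzymes and channels come in forms made from separate genes, or from separate exons of 1 gene, of which nerve cells use one and fibres another. A whole brain or muscle also holds vessels, blood, connective tissue and other cells. In such bulk samples fewer cells of a type and less RNA per cell cannot be told apart.

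The deposited intensities were used as log2(intensity + 16), a scale on which 1 unit is a 2-fold change and a probe set with no signal stands at 4.00. Differences are brain minus muscle on this scale, with the standard error (SE) of the fit after the ± sign. Adjusted p-values come from limma's moderated test over all genes tested. Each gene was represented by its brightest probe set. Median intensity was 146 to 170 on the brain arrays and 88.8 to 96.4 on the muscle arrays. Arrays of 1 tissue correlated with each other at 0.976 to 0.993 over genes, and brain with muscle arrays at 0.680 to 0.729.

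Some arrays held transcripts that mark another tissue or another part of the brain. Brain arrays 1 and 3 carried more thick filament transcripts than brain arrays 2 and 4. The summed intensity of the 19 measured genes was 6511 and 4687 against 2269 and 2222, where muscle arrays had 143613 to 163190. Myh4, the myosin of the fastest fibres, was at 10.78 and 9.995 on brain arrays 1 and 3 and at 6.82 and 6.79 on arrays 2 and 4. Brain array 3 alone among the brain arrays had a high pituitary sum, 4734 against 482 to 599, with prolactin (Prl) at 10.45 against 6.08 to 6.38. Its striatal sum was the lowest of the brain arrays, 12549 against 24100 to 39918. Brain arrays 3 and 4 had choroid plexus sums of 18214 and 21437 against 5581 and 6255. Among the muscle arrays, array 2 had the highest neuronal sum, 5141 against 3400 to 3847, where brain arrays had 128174 to 136940. Its sum of adipocyte genes was 43785 against 16394 to 23283 on the other muscle arrays. The plot of these sums by array shows which samples stood apart. What these transcripts contribute to a difference was not tested beyond the fits without the arrays, which are given where they change a result.

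**Figure D1:**
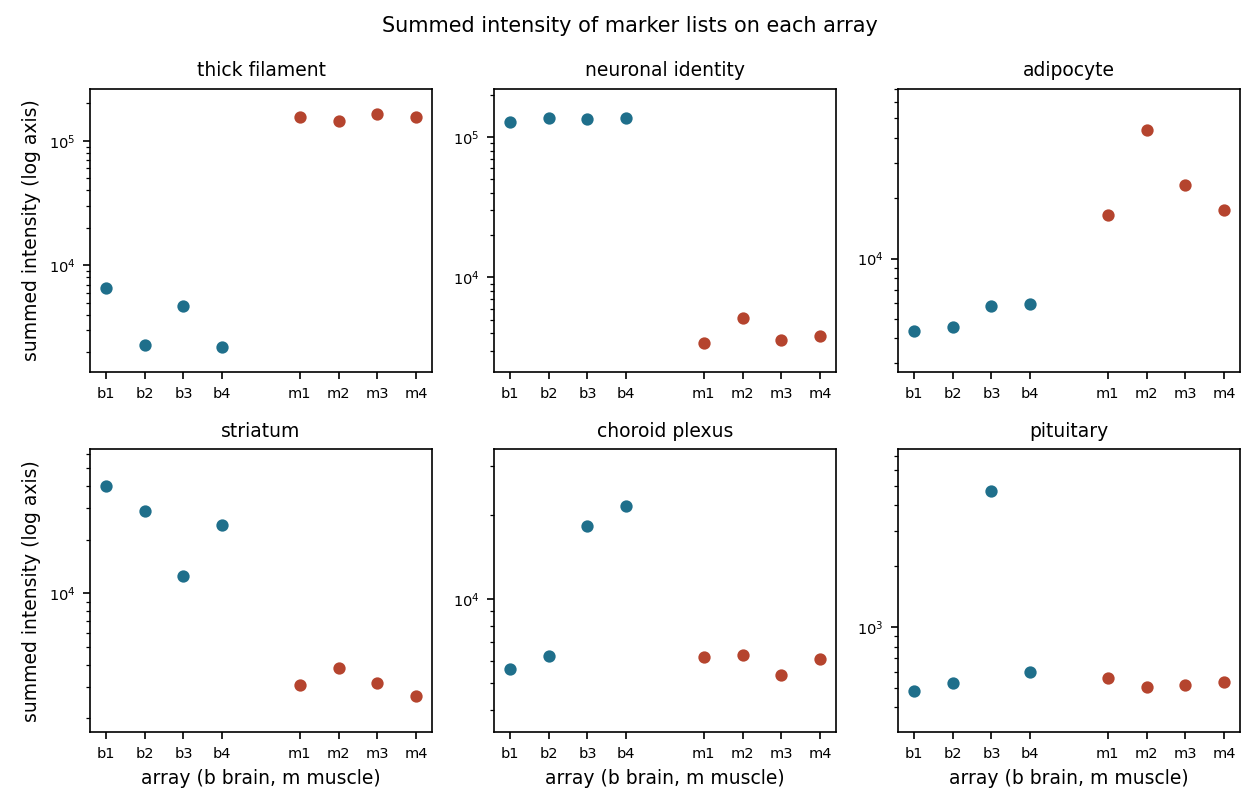
Summed intensity of 6 marker lists (log axis) on each of the 4 brain (b, blue) and 4 muscle (m, red) arrays. Thick filament transcripts lie higher on brain arrays 1 and 3 than on 2 and 4, choroid plexus transcripts higher on brain arrays 3 and 4, pituitary transcripts high on brain array 3, and adipocyte transcripts highest on muscle array 2.

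The tissues differed at most genes. Of 13645 genes tested, 8216 were higher in brain (60.2%) and 3054 higher in muscle (22.4%), while 2375 did not pass. By at least 1 log2 unit, 4756 were higher in brain (34.9%) and 1391 in muscle (10.2%). Differences ran from -8.01 to 7.52, and 679 genes were higher in brain by 4 units or more against 155 in muscle. The values of the 4 brain and 4 muscle arrays did not overlap for 7803 genes higher in brain (57.2%) and 2859 higher in muscle (21%). The first principal component, which held 95.6% of the variance, separated the tissues.

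How many genes fall on each side depends on the scale set between the tissues. As deposited, the median of all genes tested was 0.54 in favour of brain. Quantile normalization moved it to -0.20, median centring to -0.25 and scaling by the 75th percentile to -0.26, a shift of 0.75 to 0.80. The counts then became 4666 higher in brain and 6430 in muscle with quantile normalization, 4464 and 6636 with centring, and 4410 and 6706 with the percentile. The share of calls that were higher in brain was 72.9% as deposited and 42.1%, 40.2% and 39.7% under these scalings. All 3 scalings moved the median toward muscle, so a difference in favour of brain smaller than about this shift has no settled direction. Small differences in favour of muscle varied by gene. The median of mitochondrial complex I genes went from -0.61 to between -0.68 and -1.45 under the scalings. Cox7a2, which did not pass, went from -0.09 to 0.01 with quantile normalization. The plot of brain against muscle levels shows genes along both edges and a band of shared genes on the diagonal.

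**Figure D2:**
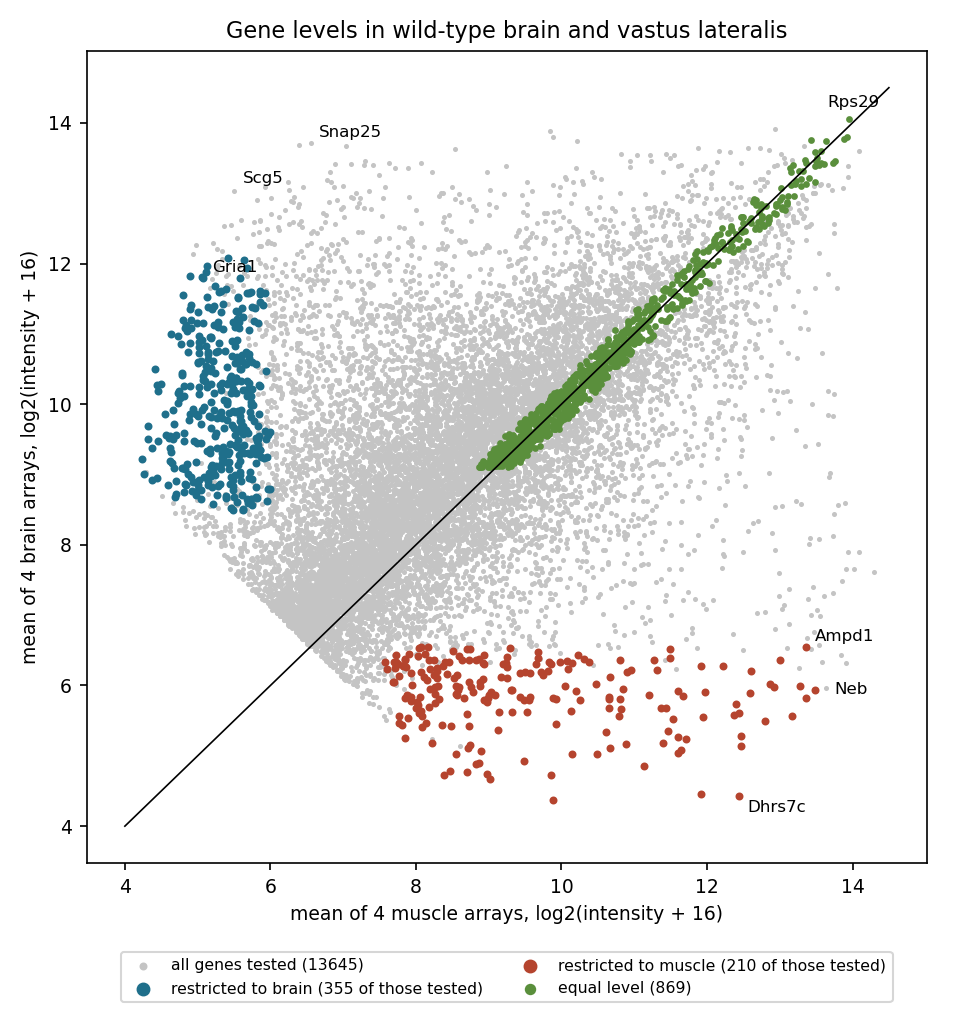
Mean level of each of 13645 tested genes in 4 muscle arrays (x axis) and 4 brain arrays (y axis), both as log2(intensity + 16), with equality on the diagonal. Genes restricted to brain (blue, 355 of those tested) lie at the left edge, genes restricted to muscle (red, 210) at the lower edge and 869 genes at equal level (green) on the diagonal.

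The 15 largest differences in favour of brain, all with values that did not overlap between tissues, ran from 6.92 to 7.52. The genes were Scg5, Stmn3, Olig1, Elavl2, Gad1, Nefm, Snap25, Chgb, Pacsin1, Mapk10, Scg2, Rab3c, Hpcal4, Ly6h and Pcp4. Scg5, Chgb and Scg2 are granins or their helpers, cargo of the dense-core granules from which neurons release peptides. Scg5 stood at 12.92, 13.08, 13.02 and 13.08 in brain and at 4.01, 7.47, 4.28 and 6.26 in muscle, a difference of 7.52 ± 0.65 (adjusted p = 1.45e-06). Snap25, a protein of the machine that fuses vesicles with the membrane, was at 13.66 to 13.83 in brain and at 4.00, 9.23, 5.18 and 7.79 in muscle, a difference of 7.16 ± 0.94 (adjusted p = 3.96e-05). Both genes were near the bottom of the scale on muscle array 1 and highest on muscle array 2, followed by array 4. The brain arrays were close together. Without muscle array 2 the differences were 8.18 for Scg5, 8.05 for Snap25, 7.51 for Pcp4 and 7.89 for Gad1.

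Neuronal identity genes were higher in brain in 24 of 24 tested, with a median of 5.80, where all genes had a median of 0.54 and 60.2% higher in brain. They ran from 0.92 for Dcx, which marks young neurons, to 7.29 for Stmn3, which binds tubulin. The neurofilament genes Nefm and Nefl differed by 7.16 and 5.81, and Tubb3, the neuronal beta tubulin, by 5.80. Under centring and the percentile 23 of 24 remained higher in brain and none was higher in muscle. Synaptic vesicle genes were higher in brain in 22 of 22, with a median of 4.82. Rab3c, a small GTPase of vesicles, reached 6.94. Syn2, a synapsin that tethers vesicles, differed by 6.01 ± 0.14. Another of its probe sets, the brightest without brain arrays 1 and 3, was at -0.71. Cplx1, a complexin that clamps vesicles before release, differed by 4.67. Rims1, a scaffold of the active zone where vesicles dock, differed by 4.63, and the vesicle protein Sv2a by 5.05.

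Receptors and channels of neurons followed. Glutamate and GABA receptor genes were higher in brain in 16 of 16 tested, with a median of 4.92. Gria1, a subunit of the AMPA receptor that carries fast excitation, was at 11.62 to 11.99 in brain and 4.54 to 5.87 in muscle, a difference of 6.72 ± 0.24 (adjusted p = 2.07e-09). The GABA-A receptor subunits Gabra5, Gabra2 and Gabra3 differed by 5.80, 4.93 and 4.85. Another probe set of Gabra2, the brightest without brain arrays 1 and 3, was at 2.49. Of 15 tested postsynaptic density genes 14 were higher in brain, among them the scaffolds Dlg2 by 6.08 and Dlg4 by 3.34. Another probe set of Dlg2, the brightest without brain array 1, array 3 or both, was at 1.66 without both. The other was Homer1, which ties receptors to calcium stores. It was at 11.07 to 12.10 in brain and 11.82 to 11.93 in muscle, and the difference of -0.22 ± 0.20 did not pass (adjusted p = 0.324).

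Voltage-gated channel genes were higher in brain in 20 of 23 tested and in muscle in 2. Kcnd2, Kcnc2 and Kcnq3, which carry potassium currents, differed by 6.59, 6.40 and 6.24, and the sodium channel Scn2a by 5.75. Without brain arrays 1 and 3 another probe set of Kcnd2 was the brightest, at 5.21. Cacna1s, the voltage sensor of the fibre's transverse tubules, was higher in muscle, at 12.37 to 12.53 against 4.81 to 5.86, a difference of -7.18 ± 0.21 (adjusted p = 6.31e-10). Kcnc1 also passed in favour of muscle by -0.84 ± 0.12, with 10.62 to 10.75 in muscle and 9.50 to 10.07 in brain. Averaged over its probe sets Kcnc1 was 0.95 higher in brain, so its direction depends on the probe set.

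Of 13 tested interneuron genes 11 were higher in brain. Gad1, which makes GABA, was at 12.93 to 13.42 in brain and 4.27 to 8.09 in muscle, a difference of 7.16 ± 0.66. The peptides Sst and Vip differed by 5.40 and 4.66, and the calcium buffer Calb2 by 5.40. Pvalb, the calcium buffer parvalbumin, marks a class of interneurons and is also abundant in fast muscle fibres. It was at 11.34 to 11.95 in brain and 13.75 to 13.82 in muscle, a difference of -2.14 ± 0.12 (adjusted p = 4.95e-08).

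Glial genes were higher in brain throughout their lists. All 17 tested oligodendrocyte genes passed, with a median of 4.37, also under each of the 3 scalings. Olig1, a factor of the oligodendrocyte lineage, was at 12.04 to 12.51 in brain and 4.00 to 6.19 in muscle, a difference of 7.29 ± 0.41. Myelin genes followed, with Mobp at 6.80, Mal at 5.76 and Cnp at 4.37. Mobp was 12.82 and 12.75 on brain arrays 1 and 2 and 13.37 and 13.26 on arrays 3 and 4, and the list's sum was likewise higher on arrays 3 and 4, 77639 and 72159 against 55393 and 50645. All 17 astrocyte genes also passed, with a median of 3.01. Under centring 15 were higher in brain and 1 in muscle. Slc1a2, which clears glutamate from the synapse, differed by 6.15 and Aldoc, an aldolase of astrocytes, by 5.65. Ttyh1 differed by 5.90 and Ntsr2, a neurotensin receptor, by 4.72.

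Transcripts that mark some brain regions were not at equal level on the 4 brain arrays. Of 12 tested striatal genes 11 were higher in brain. Penk, the enkephalin precursor, was at 12.74, 12.27, 10.81 and 12.15 in brain, lowest on array 3, and at 6.99 to 8.12 in muscle, a difference of 4.56 ± 0.38 (adjusted p = 1.15e-06). Of 9 tested cerebellar genes 6 passed in favour of brain, a share near that of all genes (60.2%). Their median was 3.32, and 1.27 without brain arrays 1 and 3. Pcp2, a Purkinje cell gene, was at 8.60, 8.79, 13.03 and 8.29, high on array 3 and otherwise level with muscle at 8.42 to 8.72, and did not pass (adjusted p = 0.258). Ttr, the thyroid hormone carrier made by the choroid plexus, was at 11.84 and 11.91 on arrays 1 and 2, at 13.70 and 13.74 on arrays 3 and 4, and at 5.70 to 6.91 in muscle. The pituitary genes Gh, Pomc and Lhb did not pass, and Pomc passed at 0.45 without brain arrays 1 and 3. Gh and Pomc were high on brain array 3 alone, at 9.17 and 11.31. Of 15 tested peptide and monoamine genes 11 were higher in brain, against 60.2% of all genes. The 11 included Cartpt, an appetite peptide, by 4.18, Tac2 by 3.84, Crh, the stress hormone releaser, by 3.76, and Th, which makes catecholamines, by 3.59. Without brain arrays 1 and 3 the count was 6 of 12 tested, with 2 higher in muscle, and under each scaling 7 of 15 were higher in brain and 1 or 3 in muscle.

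**Figure D3:**
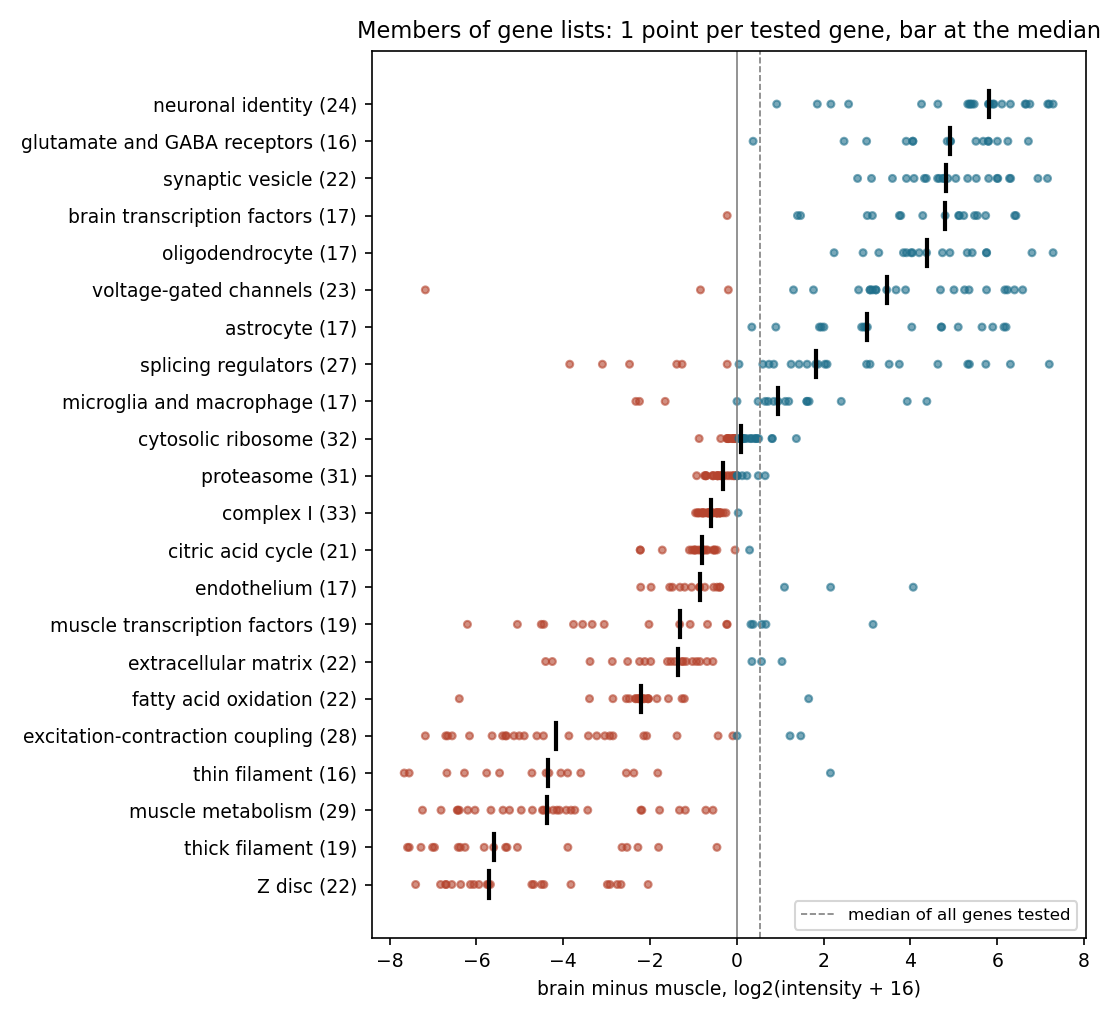
Difference of each tested member of 22 gene lists, brain minus muscle on the log2(intensity + 16) scale, with 1 point per gene, the list's median as a black bar and the number tested in brackets. Neuronal identity and synaptic vesicle lists lie to the right with medians of 5.80 and 4.82, ribosome and proteasome near 0, and sarcomere lists to the left with medians of -4.36 to -5.70.

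The 15 largest differences in favour of muscle ran from -8.01 to -6.97. The genes were Dhrs7c, Neb, Fabp4, Mybpc2, Tmod4, Myom2, Asb15, Myot, Tmem182, Rpl3l, Mylk4, Ckmt2, Cacna1s, Myom1 and Myh2. Dhrs7c, an enzyme of the sarcoplasmic reticulum, was at 4.20 to 4.64 in brain and 12.33 to 12.53 in muscle, a difference of -8.01 ± 0.11 (adjusted p = 3.76e-11). Neb, the ruler protein of the thin filament, was at 7.20, 5.18, 6.55 and 4.95 in brain and 13.56 to 13.73 in muscle, a difference of -7.66 ± 0.43, and of -8.57 without brain arrays 1 and 3. Fabp4, a fatty acid binding protein of fat cells and vessels, was at 5.34 to 5.80 in brain and at 12.83, 13.79, 13.22 and 12.82 in muscle, highest on array 2. Rpl3l, a form of ribosomal protein L3 that striated muscle uses, was at 5.19 to 5.79 in brain and 12.70 to 12.85 in muscle, a difference of -7.30 ± 0.13.

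Sarcomere lists were nearly uniform. Z disc genes were higher in muscle in 22 of 22 tested, with a median of -5.70, against 22.4% of all genes, led by Myot at -7.40 (-8.04 without brain arrays 1 and 3), Trim63 at -6.83, Ldb3 at -6.71 and Trim54 at -6.70. Thick filament genes were higher in muscle in 18 of 19, with a median of -5.60 and of -6.65 without brain arrays 1 and 3. Myom1 and Myom2, which crosslink myosin at the M band, differed by -7.01 and -7.55. Without brain arrays 1 and 3 Myom2 was at -8.13. Mybpc2, the fast myosin binding protein, was at 8.21, 4.82, 7.51 and 4.73 in brain and 13.87 to 13.95 in muscle, so brain arrays 1 and 3 stood apart here too, and without them the difference was -9.13. Myh3, the embryonic myosin, was the member that did not pass, at 5.99 to 6.999 in brain and 6.41 to 7.22 in muscle. Without brain array 2 or without muscle array 4 it passed, by -0.64 or -0.63. Thin filament genes were higher in muscle in 15 of 16, with a median of -4.36. Lmod3 and Tmod4, which set the length of actin filaments, differed by -5.76 and -7.55. Tnnt3, the fast troponin T, was at 10.21, 4.88, 9.57 and 5.78 in brain and 14.24 to 14.31 in muscle. Its difference was -6.68 ± 1.05 (adjusted p = 1.54e-04), and -8.96 without brain arrays 1 and 3. Tpm3 was the thin filament gene called in favour of brain, by 2.16, and its probe sets disagreed, as described with the other such genes.

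Muscle array 2 was the lowest muscle array at several genes of slow fibres. These genes were chosen after their values were seen, as were those named elsewhere for an array that stood apart, as an exception within a list or for a printed promoter. Myh7, the slow myosin, was at 11.33, 8.82, 12.03 and 11.80 in muscle and 8.28 to 9.20 in brain. The slow troponins were also lowest on array 2, with Tnni1 at 10.30, 7.89, 10.95 and 11.07 and Tnnt1 at 11.26, 8.86, 11.95 and 11.86. Myoz2, a Z disc protein that binds calcineurin, was at 12.04, 10.22, 12.03 and 12.10. Genes of fast fibres were not alike. Myh2, the myosin of a fast oxidative fibre type, was also low on array 2, at 12.92 against 13.67 to 13.80, while Myh4 was at 13.83 to 13.98 and Actn3 at 13.98 to 14.04 over the 4 muscle arrays. Ldb3 and Lmod3 were lowest on array 2 as well, at 13.42 against 13.49 to 13.50 and at 11.28 against 11.48 to 11.50. All 4 slow genes passed in favour of muscle, by -2.28, -4.05, -2.55 and -5.68, or by -3.01, -4.77, -3.25 and -6.14 without muscle array 2, and the groups overlapped for Myh7 and Tnnt1.

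Excitation-contraction coupling genes, which turn a membrane signal into calcium release, were higher in muscle in 24 of 28 tested and in brain in 2, with a median of -4.16. Ryr1, the release channel, was at 6.03 to 8.21 in brain and 13.42 to 13.64 in muscle, a difference of -6.56 ± 0.37 (adjusted p = 4.65e-08). Srl, Cacng1, Hrc and Jsrp1, proteins of the reticulum and tubules, differed by -6.16, -5.64, -5.01 and -4.61. The members higher in brain were the calcium pump Atp2a2, by 1.47 ± 0.41, and the ryanodine receptor partner Fkbp1a, by 1.23 ± 0.09. Atp2a2, also the slow-fibre pump, was at 12.11, 10.36, 12.54 and 12.39 in muscle and 13.13 to 13.53 in brain. Dystrophin complex genes, which tie the cytoskeleton to the matrix, were higher in muscle in 8 of 14 and in brain in 3, and in 11 and 2 under each scaling. Sgca, the muscle sarcoglycan, differed by -4.09 and Capn3, a muscle protease placed on this list, by -3.83. Utrn, the homologue of dystrophin, was higher in brain by 1.14, Dtnb by 1.18 and Sgce by 0.99.

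The neuromuscular junction is the synapse between nerve and fibre, and the list holds genes known from its muscle side. Of 11 tested members 7 were higher in brain and 3 in muscle, shares near those of all genes (60.2% and 22.4%). The members higher in muscle were Rapsn, Chrnb1 and Chrna1. Rapsn, which clusters the acetylcholine receptor, was at 4.80 to 5.25 in brain and 8.77 to 9.14 in muscle, a difference of -3.82 ± 0.12 (adjusted p = 9.76e-10). The receptor subunits Chrnb1 and Chrna1 differed by -3.53 and -2.31. Agrn, an organiser of the junction, was higher in brain by 2.35. Under each scaling 4 members were higher in brain and 4 or 5 in muscle.

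Energy metabolism differed by several units at enzymes with a muscle form and by less at the shared machinery of mitochondria. Muscle metabolism genes were higher in muscle in 29 of 29 tested, with a median of -4.37. Ampd1, the muscle AMP deaminase, was at 6.35 to 6.65 in brain and 13.27 to 13.43 in muscle, a difference of -6.81 ± 0.09 (adjusted p = 3.76e-11). Gys1, glycogen synthase, differed by -4.45. Fatty acid oxidation genes were higher in muscle in 21 of 22, with a median of -2.20. Cd36, a fatty acid transporter, differed by -6.39 and the dehydrogenases Acadvl, Acadm and Acads by -2.55, -2.33 and -2.05. Cpt1a, the form of carnitine palmitoyltransferase best known from liver, was higher in brain by 1.66 ± 0.11.

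Complex I genes were higher in muscle in 32 of 33 tested, but the median was only -0.61 and the largest difference -0.95, for Ndufs1. Genes of complexes II to V were higher in muscle in 30 of 35, with a median of -0.49. Uqcrfs1, the iron-sulfur protein of complex III, was at -0.94. Cox7c, at 0.58, was the member called in favour of brain, and under centring and the percentile none was. Citric acid cycle genes were higher in muscle in 19 of 21, with a median of -0.80. Idh2, mitochondrial isocitrate dehydrogenase, and Pdk2, which restrains pyruvate entry, were furthest out at -2.23 and -2.22. All 3 medians stayed below 0 under each scaling, between -0.47 and -1.65.

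Genes restricted to a tissue were counted by rank within each array, which needs no scale between arrays. A gene counted where all 4 arrays of 1 tissue were above their own median over genes and all 4 of the other were below their own 0.25 quantile. This held for 357 genes in brain (1.96% of 18193) and 220 in muscle (1.21%). The brain-restricted genes with the largest differences were Ly6h at 6.92, Vgf, a secreted neuropeptide precursor, at 6.84, and Spock1, a matrix proteoglycan, at 6.76. Dhrs7c, Fabp4 and Tmod4 led in muscle. Neb and Mybpc2, which stood higher on brain arrays 1 and 3, did not count, and without these 2 arrays the muscle count was 274. Restricted genes were protein coding in 338 and 206 cases and long noncoding in 13 and 10, where of all 18193 genes 16468 were protein coding and 1354 long noncoding.

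The promoters of the restricted genes differed in composition from each other. Promoters here are the 250 bases before to 50 bases after the annotated start, from RefSeq on GRCm38.p6, for genes with a single entry: 213 of the brain-restricted, 128 of the muscle-restricted, 587 of the equal-level and 8717 of the tested genes. The ratio of observed to expected CpG pairs, which is high in CpG islands, had a median of 0.308 in muscle-restricted and 0.641 in brain-restricted genes, against 0.830 in equal-level genes and 0.750 in all tested. The G and C share was 53.2%, 63%, 60.7% and 60.7%. The TATA box TATAAA, on either strand, was in 21.1% of muscle-restricted, 7.51% of brain-restricted, 6.47% of equal-level and 8.24% of tested promoters. It was in 13.6% of all promoters in the table. The E-box CAGCTG, read by the myogenic factors, was in 28.9%, 16.9%, 13.3% and 15.3%, with 16.3% over the table. The pattern of the muscle and brain factor MEF2, CTA or TTA followed by 4 bases that are each A or T and then by TAG or TAA, with C first, G last or both, was added after the data were seen. It was in 10.2%, 0%, 1.02% and 1.19%, with 1.86% over the table. It shares bases with some TATA box matches. A looser MEF2 site, CTA and TAG around any 4 bases, was in 10.9%, 3.29%, 4.94% and 3.20%, with 3.69% over the table. The box of serum response factor, in a loose form, was in 75%, 86.4%, 87.7% and 85.9%. In a strict form the box was in 1.56%, 0.94%, 1.02% and 1.35%. The GC box was in 35.2%, 58.7%, 64.7% and 62.6%. These are shares of promoters with given letters, with no test, and no statement about binding.

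The 150 bases before the start of 5 genes are shown as examples, read 5′ to 3′ in the gene's direction. Capitals mark every match to the MEF2 pattern, TATAAA or CAGCTG. Myoz2 (chr3:123034988-123035137, minus strand), Klhl41 (chr2:69669970-69670119, plus strand) and Clcn1 (chr6:42286535-42286684, plus strand) were restricted to muscle. Klhl41 stabilises thin filaments and Clcn1 is the chloride channel of the fibre. Gabra4 (chr5:71658309-71658458, minus strand), a GABA-A receptor subunit, was restricted to brain, and Slc25a3 (chr10:91123968-91124117, minus strand), the mitochondrial phosphate carrier, was at equal level.
Myoz2: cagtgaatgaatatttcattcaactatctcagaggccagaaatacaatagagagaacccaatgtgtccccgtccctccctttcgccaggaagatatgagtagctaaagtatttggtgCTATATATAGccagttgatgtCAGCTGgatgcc
Klhl41: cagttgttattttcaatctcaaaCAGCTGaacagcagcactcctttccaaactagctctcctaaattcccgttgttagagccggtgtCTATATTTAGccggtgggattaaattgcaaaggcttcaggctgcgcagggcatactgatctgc
Clcn1: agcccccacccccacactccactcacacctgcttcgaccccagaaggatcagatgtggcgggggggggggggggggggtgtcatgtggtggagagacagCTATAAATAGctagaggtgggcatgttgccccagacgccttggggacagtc
Gabra4: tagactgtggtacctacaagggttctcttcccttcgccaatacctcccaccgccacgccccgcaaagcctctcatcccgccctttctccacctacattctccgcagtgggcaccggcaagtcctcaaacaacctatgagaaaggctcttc
Slc25a3: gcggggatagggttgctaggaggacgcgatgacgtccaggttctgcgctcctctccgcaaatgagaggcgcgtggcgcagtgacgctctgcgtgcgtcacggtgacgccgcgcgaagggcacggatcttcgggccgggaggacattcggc
The MEF2 pattern began 33 bases before the start in Myoz2, 63 in Klhl41 and 51 in Clcn1. It was in 13 of the 128 muscle-restricted promoters, so these 3 are not typical of that set. Myoz2 and Klhl41 also held a CAGCTG. The whole 300-base windows of these 3 genes held 4, 6 and 3 CpG pairs, that of Gabra4 12 and that of Slc25a3 31.

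Families with separate genes for nerve and muscle were compared as pairs. The 40 pairs were drawn up from textbook knowledge as a nerve form and a muscle form, so their direction is a description and not independent evidence. Of these, 36 had both genes tested, and in 29 the first gene was higher in brain and the second in muscle, where 60.2% of all genes were higher in brain and 22.4% in muscle. The 29 include eEF1A, a factor of translation, whose Eef1a2 passed at -0.23 with values that overlapped between the tissues and lay within the margin of equal level. Eef1a2 did not pass with quantile normalization, and Eef1a1, at 0.97, did not with centring or the percentile. In 2 pairs both were higher in brain, in 1 both in muscle, and in 4 at least 1 gene did not pass. Since levels of different probe sets are not comparable, each gene is compared only with itself in the other tissue.

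Creatine kinase, which buffers ATP, showed the switch in the cytosol and in mitochondria. Ckb was at 13.18 to 13.42 in brain and at 7.81, 8.92, 7.86 and 8.27 in muscle, a difference of 5.09 ± 0.22 (adjusted p = 6.50e-09). Ckm was at 10.38, 7.04, 9.61 and 7.25 in brain and 13.72 to 13.88 in muscle, a difference of -5.24 ± 0.66 (adjusted p = 2.94e-05). Brain arrays 1 and 3 were the high ones for Ckm, which was at -6.66 without them, and muscle array 2 for Ckb. The mitochondrial forms Ckmt1 and Ckmt2 differed by 3.33 ± 0.10 and -7.24 ± 0.26.

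Several steps of glycolysis switched. Hexokinase, the entry step, had Hk1 at 12.23 to 12.45 in brain and 8.35 to 9.05 in muscle and Hk2 at 6.77 to 7.20 and 12.61 to 12.77, differences of 3.64 ± 0.14 and -5.66 ± 0.11. Enolase had Eno2 at 6.11 ± 0.37 and Eno3 at -6.03 ± 0.26. Phosphoglycerate mutase had Pgam1 at 3.16 ± 0.17 and Pgam2 at -6.44 ± 0.11. Phosphofructokinase had Pfkp at 4.10 and Pfkm at -1.32, and lactate dehydrogenase Ldhb at 1.12 and Ldha at -1.19. Aldolase had Aldoc at 5.65 and Aldoa at -0.71. Glycogen phosphorylase had Pygb at 3.78 and Pygm at -3.82, and its kinase Phka2 at 1.03 and Phka1 at -4.48. The glucose carriers followed, with Slc2a3 at 5.27 and the insulin-responsive Slc2a4 at -4.37.

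The purine cycle and mitochondria followed. AMP deaminase had Ampd2 at 3.00 and Ampd1 at -6.81, adenylosuccinate synthase Adss at 2.56 and Adssl1 at -3.93. The AMP kinase gamma subunits Prkag2 and Prkag3 were at 3.02 and -5.70. Cytochrome oxidase had Cox6a1 at 13.48 to 13.60 in brain and 11.12 to 12.18 in muscle and Cox6a2 at 9.25 to 9.65 and 13.46 to 13.56, differences of 2.00 ± 0.20 and -4.09 ± 0.10. Cox8a and Cox8b were at 2.32 and -6.43. For subunit 7a, Cox7a1 was at -5.39 while Cox7a2 was at 13.32 to 13.50 in brain and 13.47 to 13.49 in muscle, a difference of -0.09 ± 0.08. The adenine nucleotide carriers Slc25a5 and Slc25a4 were at 2.00 and -0.55. Acacb, the acetyl-CoA carboxylase that makes the brake on fatty acid uptake into mitochondria, was at -4.90, while Acaca did not pass, with 9.87 to 10.07 in brain and 7.85, 10.98, 8.81 and 8.35 in muscle. Muscle array 2 was the high one for Acaca, as it was for adipocyte genes, and without it Acaca passed in favour of brain by 1.62.

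Calcium and ion channels switched as well. The release channels Ryr2 and Ryr1 were at 5.87 ± 0.22 and -6.56 ± 0.37, and Ryr2 was at 10.37 to 11.13 in brain and 4.56 to 5.45 in muscle. The L-type channels Cacna1c and Cacna1s were at 3.21 and -7.18, and their beta subunits Cacnb4 and Cacnb1 at 6.004 and -3.04. Another probe set of Cacnb1, the brightest without any 1 of the muscle arrays, was at 0.56 to 0.66. The junctophilins Jph3 and Jph1, which hold membranes to calcium stores, were at 5.58 and -3.42. In the chloride channel family Clcn6 and Clcn1 were at 4.21 and -4.45, and among calcium pumps Atp2b2 and Atp2a1 at 6.42 and -5.31. These 2 pairs are members of a family and not alternative forms of 1 protein. In the cytoskeleton Actb was at 1.08 and Acta1, skeletal actin, at -3.60, and the actinins Actn1 and Actn2 at 1.90 and -4.72. Another probe set of Actb was at -0.32. Acta1 was at 11.39 and 10.87 on brain arrays 1 and 3 and at 9.37 and 8.94 on arrays 2 and 4. Without arrays 1 and 3 Acta1 was at -4.58 and Atp2a1 at -6.50.

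A few pairs did not switch. Celf4 and Celf1, and Ptbp2 and Ptbp1, both RNA-binding families, were higher in brain in both members, by 5.36 and 0.74 and by 2.08 and 0.85. Flna and Flnc were both higher in muscle, by -0.70 and -3.82. Rbfox3 was at 6.30 and Mbnl1 at -1.38, while their partners did not pass. Of the small differences, Celf1 changed sign under centring and the percentile, and Ppp1r3d, at 0.70, under all 3 scalings.

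**Figure D4:**
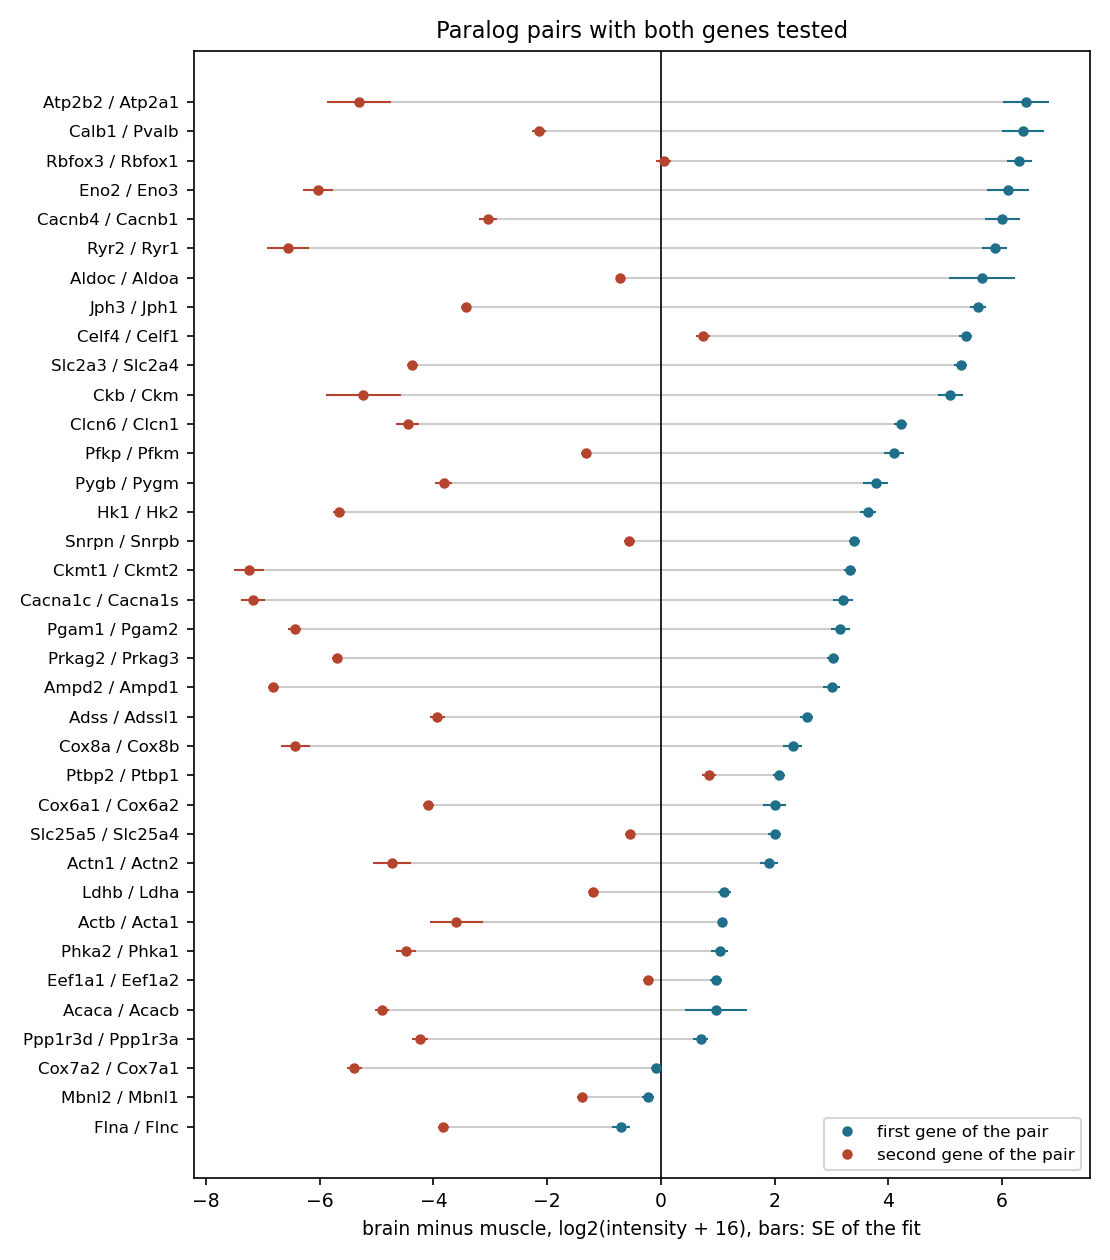
Difference of both genes in the 36 pairs with both tested, brain minus muscle on the log2(intensity + 16) scale with the SE of the fit as bars, first gene blue and second gene red. In 29 pairs the blue point lies right of 0 and the red point left of it, each past the threshold.

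Promoters of 2 of these pairs are shown because they contrast in sequence. They are the 150 bases before the start of Pgam1 (chr19:41911721-41911870, plus strand), Pgam2 (chr11:5803797-5803946, minus strand), Ckb (chr12:111672339-111672488, minus strand) and Ckm (chr7:19410944-19411093, plus strand), on GRCm38.p6, with capitals as before.
Pgam1: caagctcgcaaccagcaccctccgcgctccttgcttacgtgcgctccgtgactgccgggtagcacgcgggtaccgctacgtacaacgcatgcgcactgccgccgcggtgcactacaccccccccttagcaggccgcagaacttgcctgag
Pgam2: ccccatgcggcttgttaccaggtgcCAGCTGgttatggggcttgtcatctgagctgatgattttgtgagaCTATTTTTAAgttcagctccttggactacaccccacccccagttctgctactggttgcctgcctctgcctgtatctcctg
Ckb: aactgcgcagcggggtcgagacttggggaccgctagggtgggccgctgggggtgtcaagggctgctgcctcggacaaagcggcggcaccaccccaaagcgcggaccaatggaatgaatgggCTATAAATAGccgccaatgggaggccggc
Ckm: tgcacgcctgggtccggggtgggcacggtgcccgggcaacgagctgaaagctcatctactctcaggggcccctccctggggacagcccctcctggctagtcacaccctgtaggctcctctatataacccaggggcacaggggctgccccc
The 300-base windows held 30 CpG pairs in Pgam1 and 1 in Pgam2, and 22 in Ckb and 7 in Ckm. Pgam2 held the MEF2 pattern 80 bases before the start and a CAGCTG 125 bases before. Ckb, the gene higher in brain, held the MEF2 pattern 29 bases before its start, where it contains a TATA box. The printed bases of Ckm held none of the 3 patterns marked by capitals.

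Some genes had probe sets that differed in opposite directions. Of 6777 genes with several tested probe sets, 4112 had probe sets that differed from each other between the tissues (60.7%, diffSplice). In 83 genes (1.22%) at least 1 probe set was higher in brain and another higher in muscle, each past the threshold and by at least 1 unit. In 63 of these the outermost pair held no probe set with a name ending in x_at or s_at. Probe sets ending in a_at, which can match several transcripts of a gene, were not left out of this count. With quantile normalization, centring and the percentile 133, 141 and 139 genes met this rule, of which 39, 40 and 37 were among the 83. A probe set can match another transcript or an unspliced one, so these results speak of probe sets.

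Cobl, which nucleates actin filaments, had the widest gap. The probe set 1434917_at was at 9.88 to 10.84 in brain and 5.88 to 6.26 in muscle, while 1442076_at was at 5.42 to 5.90 in brain and 10.22 to 10.46 in muscle. The differences were 4.31 ± 0.19 and -4.60 ± 0.12. Map4, a microtubule protein, had 1437855_at at 11.49 to 11.86 in brain and 6.77 to 7.52 in muscle and 1439467_at at 6.49 to 7.83 and 10.58 to 10.81, differences of 4.69 and -3.72. Asph, whose gene also encodes the reticulum protein junctin, had 1436455_at at 3.24 and 1425275_at at -4.67.

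Kif1b, a motor that carries mitochondria and vesicle precursors, had 4 probe sets higher in brain and 3 higher in muscle. The outermost were 1423995_at at 2.14 ± 0.11 and 1455182_at at -4.70 ± 0.09. Msi1, an RNA-binding protein of neural stem cells, had 1452287_at at 4.15 and 1444306_at at -3.52. Ppp1r9a, a neuronal actin-binding protein, had 1456072_at at 5.10 and 1457603_at at -2.51. Cobl, Map4, Asph, Msi1, Ppp1r9a, Tpm3 and Kif1b kept the call in all 20 settings. These include the main fit and a looser size of 0.5, under which a call cannot be lost.

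Tropomyosins, which lie along the thin filament and have many tissue-specific forms, appeared more than once. Tpm3 had 1436958_x_at at 10.57 to 10.73 in brain and 7.19 to 7.70 in muscle and 1449996_a_at at 7.64 to 8.17 in brain and at 11.98, 9.46, 12.36 and 12.37 in muscle. The latter was low on muscle array 2, like the slow-fibre genes. Tpm1 had 1447713_at at -6.70 and 1423721_at at 1.42. Pdlim5, a Z disc protein, had 1429783_at at -6.14 and 1450786_x_at at 1.57. Tpm1 and Pdlim5 lost the call under the 3 scalings. Rufy3, Ncam1 and Camta1 had their probe sets furthest to the muscle side at -1.17 (1459309_at), -1.56 (1425126_at) and -1.94 (1457956_at), and those furthest to the brain side at 5.91 (1442786_s_at), 5.06 (1426865_a_at) and 4.47 (1433971_at). Ncam1 lost the call without any 1 of the 4 muscle arrays.

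**Figure D5:**
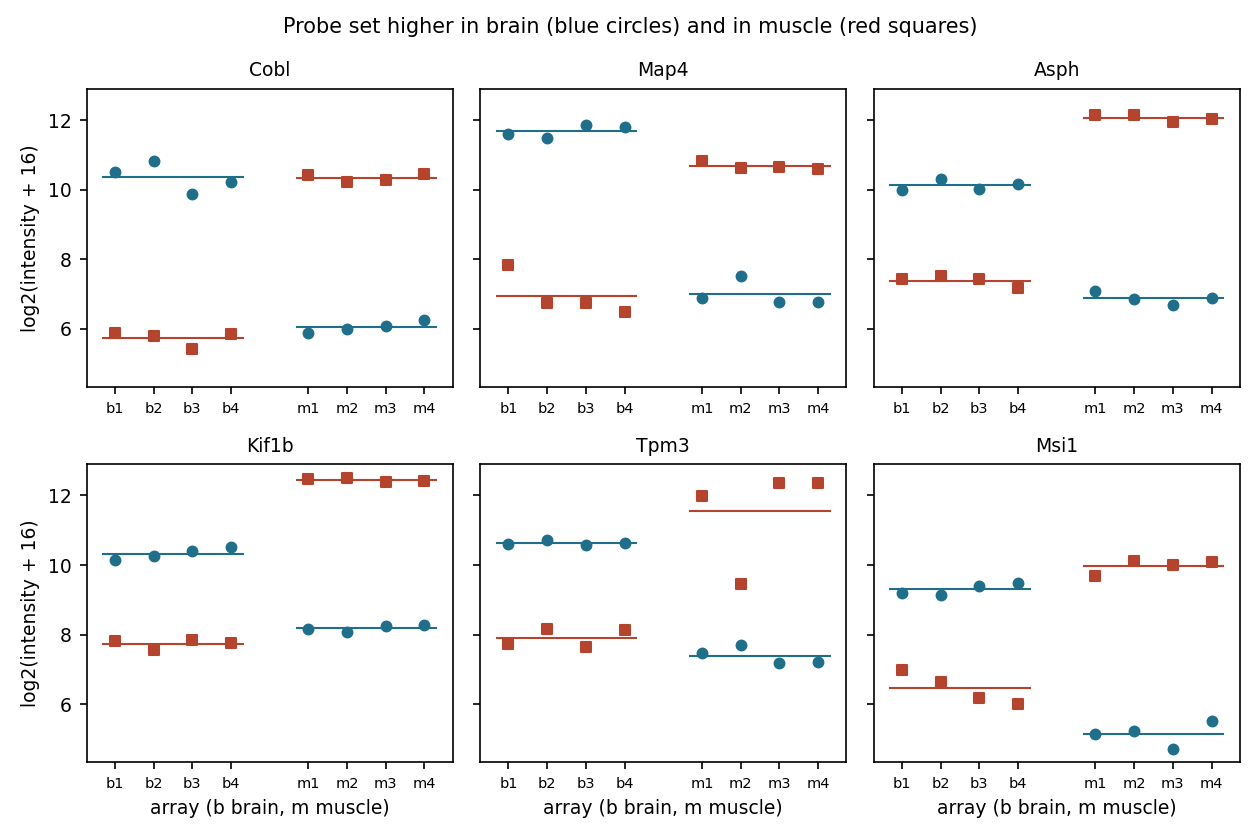
Level of the outermost probe sets of 6 genes, as log2(intensity + 16), on the 4 brain (b) and 4 muscle (m) arrays, with group means as lines. In each gene the blue circles are higher in brain and the red squares higher in muscle, and the red squares of Tpm3 fall to 9.46 on muscle array 2.

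Genes at equal level were those bright in both tissues whose whole 95% interval lay within 0.5 units of 0. There were 869 (6.37%), or 17.7% of the 4896 genes above the median in both tissues. Which genes these are depends on the scale between tissues. Quantile normalization gave 1121 such genes, of which 139 were among the 869, and centring and the percentile gave 963 and 993, of which 0 were. The list is therefore a statement about the deposited values.

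The 10 brightest were Rps29, Tpt1, ND5, Fth1, Slc25a3, Rpl38, Cox6b1, Cox4i1, Rps28 and Tuba4a. Rps29, a protein of the small ribosomal subunit, was at 14.05 ± 0.04 (SD, n = 4) in brain and 13.95 ± 0.06 (SD, n = 4) in muscle. Cox4i1, a subunit of cytochrome oxidase, was at 13.60 ± 0.05 and 13.56 ± 0.04. Fth1, the heavy chain of ferritin, which stores iron, was at 13.74 ± 0.16 and 13.64 ± 0.08. Tuba4a, an alpha tubulin, was at 13.41 ± 0.10 and 13.61 ± 0.08. A gene can pass the test and still lie within the margin, as Slc25a3 did at -0.31.

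Ribosomal protein genes were the list with most members at equal level, 22 of 32 tested, with a median of 0.09. As called, 10 were higher in brain and 4 in muscle, where 60.2% and 22.4% of all genes were. Rpl14 was highest in brain at 1.37, and Rplp0 highest in muscle at -0.87. Against the median of all genes their place depended on the scale. It was 0.09 against 0.54 as deposited, -0.71 against -0.25 with centring and -0.76 against -0.26 with the percentile, but 0.02 against -0.20 with quantile normalization. With quantile normalization 11 were higher in brain, 6 in muscle and 25 at equal level, and with centring 1, 29 and 2. Proteasome genes, which make the protein-degrading complex, had 17 of 31 higher in muscle, 2 in brain and 11 at equal level, with a median of -0.33. Under the scalings 27, 30 and 31 were higher in muscle, 4, 1 and 1 at equal level, and the medians were -0.63, -1.12 and -1.17. Psmd6, a subunit of the regulatory particle, was at -0.93.

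Of 15 tested genes used as references in expression studies, 9 were higher in brain and 4 in muscle, shares near those of all genes (60.2% and 22.4%), and 2 were at equal level. The split was 7 and 5 with quantile normalization and 4 and 9 with centring or the percentile. Hprt and Ywhaz were at 2.45 and 2.43, Actb at 1.08 and Tbp at 1.04. With centring and the percentile Actb was at 0.29 and 0.23, and another of its probe sets was at -0.32 as deposited. Rplp0 was at -0.87, B2m at -0.84 and Sdha at -0.38. The members at equal level were Pgk1 and Atp5b, at -0.24 and -0.14. Hprt and Ywhaz remained higher in brain under all 3 scalings.

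Brain transcription factors were higher in brain in 16 of 17 tested, with a median of 4.80, among them Neurod6 by 5.73, Zic1 by 5.54, Tbr1 by 5.13, Pou3f3 by 5.11 and Lhx2 by 4.80. Neurod6 was at 9.94 to 10.61 in brain and 4.00 to 4.83 in muscle. Muscle transcription factors were higher in muscle in 13 of 19 and in brain in 5, and under each scaling in 14 or 16 and in 1. Myf6, the myogenic factor of adult fibres, was at 4.63 to 5.55 in brain and 11.22 to 11.55 in muscle, a difference of -6.21 ± 0.18 (adjusted p = 5.00e-10). Vgll2, Tbx15 and Myod1 differed by -5.06, -4.45 and -3.76. Another probe set of Tbx15, the brightest without muscle array 2, was at -3.01. Hlf was the member most in favour of brain at 3.14.

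Splicing regulators were higher in brain in 20 of 27 tested and in muscle in 5, where 60.2% and 22.4% of all genes were. Their median was 1.82. Elavl2, Rbfox3, Celf4 and Elavl4, RNA-binding proteins of neurons, differed by 7.20, 6.30, 5.36 and 5.32. Rbm38, Rbm20, Rbm24 and Mbnl1 were higher in muscle. Rbm38 was at 7.48 to 7.55 in brain and 11.31 to 11.48 in muscle, a difference of -3.85 ± 0.08 (adjusted p = 1.32e-10). Rbm20, which controls titin splicing, differed by -3.10, Rbm24 by -2.47 and Mbnl1 by -1.38. Core spliceosome genes were higher in brain in 18 of 25 tested, with a median of 0.68, against 60.2% and a median of 0.54 for all genes. With quantile normalization 10 were higher in brain and 7 in muscle, with centring 8 and 9, and with the percentile 6 and 12.

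Cells shared by both tissues gave lists that split within themselves. Endothelial genes were higher in muscle in 14 of 17 tested, with a median of -0.86, and Cdh5, the cadherin of endothelial junctions, was at 7.23 to 7.66 in brain and 9.44 to 10.004 in muscle, a difference of -2.21 ± 0.14. The 3 higher in brain are known from the blood-brain barrier. Slco1a4, an organic anion transporter, was at 9.13 to 9.84 in brain and 5.37 to 5.94 in muscle, a difference of 4.06 ± 0.18 (adjusted p = 7.81e-09). Slc2a1, the barrier's glucose transporter, and Cldn5, its tight junction protein, differed by 2.16 and 1.10.

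Macrophage genes split the same way. Of 17 tested 13 were higher in brain and 3 in muscle, where 60.2% and 22.4% of all genes were. P2ry12 and Cx3cr1, genes of microglia, differed by 4.38 ± 0.16 and 3.93 ± 0.12. Lyz2, Cd163 and Mrc1, genes of other tissue macrophages, were higher in muscle by -2.33 ± 0.11, -2.24 ± 0.14 and -1.65 ± 0.15, and their values did not overlap between tissues. Under scalings 7 or 8 of 17 were higher in brain and 5 in muscle.

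Connective tissue and fat were on the muscle side. Matrix genes were higher in muscle in 19 of 22 tested, with a median of -1.35. Col3a1, a fibrillar collagen, was at 7.05 to 7.55 in brain and at 11.66, 12.57, 11.25 and 11.48 in muscle, highest on array 2. Thbs4, which binds collagen in muscle and tendon, differed by -4.25. Adipocyte genes were higher in muscle in 7 of 9. Adipoq, the hormone adiponectin of fat cells, was at 4.86 to 5.25 in brain and at 10.85, 12.78, 11.59 and 11.17 in muscle, a difference of -6.55 ± 0.35 (adjusted p = 3.08e-08). Cidec and Pnpla2, proteins of the lipid droplet, differed by -2.51 and -2.44.

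Genes of activity and of the clock were compared as well, with the time of sampling not given. Among 14 tested immediate early genes 7 were higher in brain and 5 in muscle, where 60.2% and 22.4% of all genes were. Under each scaling 6 were higher in brain and 7 in muscle. Egr3 differed by 5.56, with another probe set, the brightest without brain arrays 1 and 3, at 0.60. Arc differed by 4.42 and Egr1 by 4.23. Arc was at 11.21 and 11.22 on brain arrays 1 and 2 and at 9.77 and 9.87 on arrays 3 and 4. Zfp36 and Nr4a1 were higher in muscle, by -1.28 and -1.17. Of 18 clock genes 10 were higher in brain and 4 in muscle, shares near those of all genes (60.2% and 22.4%). Their median was 0.31, against 0.54 for all genes. Under scalings 4 or 5 were higher in brain and 10 or 11 in muscle. Npas2, a partner of the clock's activator, differed by 3.93 and was at 9.08 to 9.78 in brain and 5.47 to 5.72 in muscle. Nfil3 was at -1.18.

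In the Prader-Willi domain 6 of 7 tested genes were higher in brain, with Ndn, which encodes necdin, at 3.84, Ipw at 3.48, Snhg14 at 3.43, Snrpn at 3.40, Magel2 at 1.54 and Atp10a at 0.67. Ube3a, a ubiquitin ligase, was at 11.33 to 11.87 in brain and 11.42 to 11.64 in muscle and counted as equal. Atp10a no longer passed without brain array 1, brain array 3 or muscle array 1, at 0.54 to 0.60. Under the 3 scalings Atp10a lay between -0.01 and -0.12 and Ube3a between -0.32 and -0.76.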

How the data were processed

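The authors deposited 1 normalized intensity per probe set and array, for which the submitters' processing notes name PLIER and Affymetrix Expression Console without versions. The scaling between tissues is not given in the sources used here. All 8 wild-type arrays were mapped to groups by their titles. From the deposited intensity, log2(intensity + 16) was computed, so log2 values here are not the authors' own. Of 45101 probe sets, 34945 had 1 gene symbol in the platform annotation, 932 had several and 64 were controls. Each of 18193 genes was represented by its brightest probe set, and 13645 genes above the 0.25 quantile of mean level were tested with limma 3.58.1 (R 4.3.3, lmFit and eBayes, Benjamini-Hochberg, threshold 0.05). Probe sets within a gene were compared with diffSplice over 26209 probe sets.

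Members and gene lists were chosen with earlier results of these data known. The named genes are the 15 with the largest difference per direction, up to 4 members per list with the smallest p-values and up to 4 called against their list, the Prader-Willi and reference lists, the paralog pairs, the 12 genes with the widest opposite probe sets and the 10 brightest equal genes. Alternatives were other pseudocounts, filters, scalings, probe set choices and thresholds, array weights, an intensity trend, a replicate block and arrays left out. On simulated data with 13645 genes tested, the fit recovered 42%, 84%, 100% and 100% of changes of 0.5, 1, 2 and 4 units. Only 50 genes of each size were changed there, while 82.6% of genes passed in the real comparison. The adjusted threshold therefore differed, and these shares do not measure recovery in the real comparison.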

Additional observations from a re-analysis of the deposited data

Results flagged for a closer look

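Of 508 groups of 4 arrays examined, over 247 named genes and the summed marker lists, 21 held 1 array far from the other 3. Chance gives about 1 in 20 groups, so this number of single arrays is not above it. Values are log2(intensity + 16) unless they are sums.

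Brain array 3 stood apart at the Purkinje cell gene Pcp2 and at pituitary genes. Pcp2 was at 13.03 against 8.29 to 8.79 on the other brain arrays, Prl at 10.45 against 6.08 to 6.38 and Pomc at 11.31 against 7.39 to 8.004, and the pituitary sum was 4734 against 482 to 599. Aldoa was lower there, at 13.13 against 13.26 to 13.27. Brain array 1 was high at Tpm1 with 10.44 against 9.60 to 9.66, at Pgam2 with 7.42 against 6.92 to 6.99 and at Chrna1 with 6.16 against 5.92 to 5.94. It was also high at Ampd2 with 11.45, Ptbp1 with 10.22 and Snap25 with 13.83. Brain array 4 was low at Atp10a with 6.40 and Flnc with 7.42.

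Muscle array 2 was low at Myoz2 with 10.22 against 12.03 to 12.10 and at Myh2, the myosin of a fast oxidative fibre type, with 12.92 against 13.67 to 13.80. It was also low at Lmod3 with 11.28 and Ldb3 with 13.42, and high at Mal with 6.94 against 6.18 to 6.29 and at Ptbp1 with 9.69 against 9.15 to 9.19. Muscle array 1 was high at Acacb with 11.53, and muscle array 4 low at Pnpla2 with 11.55.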

How the results depend on the processing

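The direction of some small differences, most of those named in favour of brain, and the counts per tissue depended on the scaling between arrays. By at least 1 unit, 2680, 2612 and 2579 genes were higher in brain and 3033, 3306 and 3371 in muscle with quantile normalization, centring and the percentile, and the counts of all calls were 4666 and 6430, 4464 and 6636, and 4410 and 6706. Filtering at the 0.5 quantile gave 5455 calls in favour of brain of 9097 genes tested. A lower tissue below its 0.4 quantile gave 871 and 616 restricted genes. Margins of 0.25 and 1 gave 85 and 2446 equal genes. Opposite probe sets numbered 133, 141 and 139 under the scalings, 50 with a pseudocount of 64, and 384 and 18 for sizes of 0.5 and 2. Leaving out each array in turn gave 7917 to 8194 and 2782 to 3180 calls, 4564 to 4932 and 1321 to 1466 by at least 1 unit, 346 to 457 and 219 to 243 restricted genes, 728 to 894 equal genes, 76 to 87 opposite genes and 27 to 29 switched pairs. Without brain arrays 1 and 3 the calls were 7706 and 2981, and without muscle array 2 as well, which was chosen after the data were seen, 7735 and 2845.

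Of 247 named genes 17 changed direction in at least 1 setting. Atp10a was at -0.011 with quantile normalization, -0.12 with centring and -0.037 with the percentile. Cox7c was at -0.15 with quantile normalization, -0.21 with centring and -0.16 with the percentile. Ppp1r3d was at -0.16 with quantile normalization, -0.094 with centring and -0.100 with the percentile. Ube3a was at -0.32 with quantile normalization, -0.70 with centring and -0.76 with the percentile. With centring and the percentile, Celf1 at -0.050 and -0.10, Cox4i1 at -0.76 and -0.81, Fth1 at -0.69 and -0.75, Rpl38 at -0.46 and -0.52, Rps28 at -0.68 and -0.74 and Rps29 at -0.69 and -0.75. The cause was not tested. The other changes came where probe sets were averaged or another probe set was the brightest, as the setting's construction fixes. Averaged, Cobl was at -0.15, Kcnc1 at 0.95, Kif1b at -0.63 and Msi1 at 0.31. Without brain arrays 1 and 3, Cobl was at -4.52, Syn2 at -0.71 and Tpm3 at -3.39, and without muscle array 2 as well Cobl was at -4.56 and Tpm3 at -4.08. Over the fits without 1 array Cobl ranged from -4.66 to 4.37. Cacnb1 was at 0.60 without probe sets ending in x_at or s_at and ranged from -3.15 to 0.66 without 1 array. Counted apart, 15 genes kept their direction and lost their call in at least 1 setting where they were tested. Both counts hold some of the same genes, such as Atp10a and Cacnb1.

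Brain and muscle samples with the same replicate number did not deviate together, with correlations of -0.03 to 0.01. With the replicate number as a block, 8090 and 2966 genes passed, 786 were equal, 83 had opposite probe sets and 28 pairs switched. With 4 arrays a tissue, an exact permutation test of 1 gene cannot go below p = 0.0286.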

Other observations

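Transcripts that host microRNAs were looked at after the values were seen. Mir124-2hg, the host of the neuronal microRNA miR-124, was at 9.69 in brain and 4.31 in muscle, a difference of 5.38, and Mir124a-1hg at 10.22 and 5.48. Mir133b, the transcript of a muscle microRNA, was at 7.55 and 7.42 and did not pass (limma, adjusted p = 0.432). Mir22hg was higher in muscle, by -0.91.

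Genes of sodium-potassium and calcium pumps, which restore the ion gradients of excitable cells, were higher in brain in 9 of 11 tested and in muscle in 1. Of all genes 60.2% and 22.4% were. The median of the pump genes was 1.35. Under each scaling 7 were higher in brain and 2 or 3 in muscle. Genes of RNA polymerase II were higher in brain in 7 of 10 and in muscle in 2, with a median of 0.40, shares near those of all genes (60.2% and 22.4%). Under each scaling 2 were higher in brain and 6 in muscle, with medians of -0.33 to -0.43. Genes of the Schwann cell list were higher in brain in 5 of 6, against 60.2% of all genes, with a median of 2.27. As drawn up, the list includes Sox10 and S100b, which are also on the oligodendrocyte and astrocyte lists. It therefore does not mark the glia of nerves alone. Of 4 tested erythroid genes 1 was higher in each tissue, and under each scaling 3 were higher in muscle.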
